A study of Mus musculus with 14 samples.

Results

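The chromatin of regulatory T (Treg) cells that kept their Foxp3 protein was compared between 3 and 7 days of ligand treatment. The comparison used the 3 day 7 and 4 day 3 control (R26WT) libraries, 7 of the 14 bulk ATAC-seq libraries of the study, and every accessible window that averaged 10 or more counts in those 7 libraries. Of the 240778 windows counted, 232991 met this minimum, and they form 154666 separate regions once overlapping windows are joined. ATAC-seq reads open chromatin through cuts made by the Tn5 transposase, and each window is a 201 bp interval in which the cut fragments were counted.

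All mice carried Foxp3AID, in which Foxp3 is fused to an auxin-inducible degron and the same allele drives the fluorescent protein ZsGreen and an iCre recombinase, and all received the auxin analogue 5-ph-IAA for 3 or 7 days. R26TIR1(F74G) mice also express the plant F-box protein TIR1(F74G), which with the ligand sends the tagged protein for degradation, whereas R26WT (ROSA26-WT) mice lack it and served as controls. Treg cells came from spleen and lymph nodes, and the labels give neither ages and sexes nor a split into resting and activated cells, although the study describes its accessibility data as coming from cells of both states. Which state a library holds is not known here. For day 7, the study describes accessibility data from Foxp3AID/WT mice, which are heterozygous females. Such mice also hold Treg cells that express wild-type Foxp3. The R26WT cells are thus Treg cells with a tagged, stable Foxp3 exposed to the ligand, without an untreated group in these libraries, so that days of ligand, calendar time and library preparation cannot be told apart between the 2 days.

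Treg cells are CD4 T cells that restrain immune responses, and the X-linked transcription factor Foxp3 defines the lineage. They hold a resting population that recirculates through lymphoid organs, marked by genes such as Klf2 and Ccr7, and an activated population marked by genes such as Prdm1, Maf and Icos. Accessible chromatin lies at gene start sites in nearly every cell type and at distal elements that differ between cell types.

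Each library held between 6348754 and 17923213 counts in all windows, and day 7 replicate 3 was the shallowest. In that library 395 tested windows had no count, against 1 to 36 in the other libraries. The libraries of a day differed from each other by more than sampling noise, with a chi-square per degree of freedom of 1.62 to 2.36 over 9 pairs, and the biological coefficient of variation was 13.5%. Levels are given as CPM, the count scaled to a common library total by the trimmed mean of M values (TMM) over the 7 libraries. All windows have the same length, so levels compare between windows without a length correction.

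One further property of a single library touches several results. A search for windows at under 20% of the median of the other 6 libraries, with that median at 3 CPM or more, found 22 in day 7 replicate 2 and 0 to 5 in each of the others. Of those 22 windows, 19 lie on chromosome 16. The called Nfkbiz windows and the Gsk3b window, which lie on this chromosome, are therefore also given without single day 7 libraries.

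The landscape of these cells was weighted towards gene starts. Windows within 1000 bp of the start site of a protein-coding gene were 23.6% of all windows (55008) but held 51.6% of the counts, with a median of 4.35 CPM. Windows inside genes (95771) had a median of 1.6 CPM and windows between genes (82212) one of 1.52 CPM. Among the most accessible 1% of windows, 92.5% were start site windows. The signal was concentrated, as 10.0% of the windows held 50.0% of the counts and the first 1% alone held 12.1%.

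The 10 most accessible windows all lay at gene start sites and belonged to broadly used genes. They were those of Cnot3, a subunit of the CCR4-NOT deadenylase, at 97.4 CPM, and of Lnpep, Slc39a10, Hbp1, Zfp654, Ube2d3, Ppm1b, Klf13, Pdcd10 and Pja2, the last at 87.7 CPM. Their log2 fold changes between days ran from -0.10 to 0.04. Cnot3 was at 98.7 ± 7.25 CPM (SD, n = 4) on day 3 and 95.7 ± 8.86 CPM (SD, n = 3) on day 7.

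The genes with the most windows included Tox and Foxp1, which have known roles in T cells. Tox, a transcription factor of T cell development, had the most windows assigned to it by the nearest start site, 363 in 207 regions, against a median of 8 windows a gene. Fhit had 310 windows, Foxp1, a forkhead factor that partners Foxp3, had 303, Gm40892 had 301 and Zfp386 had 278. By summed CPM over all windows of a gene, Btg1 came first at 1201 CPM and Cblb next at 1004 CPM. Foxp1 followed at 980 CPM and Bach2, a repressor that keeps lymphocytes quiescent, at 970 CPM. Among the 363 Tox windows, 24 were higher and 6 lower on day 7 at an unadjusted p under 0.05, and no window passed after adjustment. Over all windows, 2.6% were higher and 2.65% lower at that p.

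Start sites of most Treg genes were open in every mouse. The promoter window of a gene is here the window with the highest mean count within 2000 bp of a start site, and 12815 of 21472 protein-coding genes had one, with a median of 17.8 CPM. The 20 promoter windows of the 24 Treg core genes had a median of 10.2 CPM, and Foxp3, Tnfrsf18, Itgae and Ebi3 had none. Entpd1, the ectonucleotidase CD39, led them with 31.8, 31.9, 32.8 and 39 CPM in the 4 day 3 mice and 33.2, 35.3 and 28.1 CPM in the 3 day 7 mice. Ikzf2, the Ikaros family factor Helios, had 19.6, 20.7, 22 and 22.3 CPM on day 3 and 20.5, 18.6 and 17.4 CPM on day 7. Ctla4, the inhibitory receptor by which Treg cells strip costimulatory ligands, had 12.1, 16, 13.8 and 20.1 CPM on day 3 and 18.5, 14.8 and 13.8 CPM on day 7. The days overlapped for each of these 3 genes.

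Promoters of resting-type genes had the higher median of the 2 Treg states. The 12 resting Treg promoters had a median of 25.3 CPM, led by Klf2, a factor that drives lymphocyte recirculation, at 62.7 CPM. The 16 activated Treg promoters had a median of 12.2 CPM, led by Id2 at 43.1 CPM and Prdm1, which encodes Blimp-1, at 31.0 CPM. Between days, the Klf2 promoter had 59.3, 55.2, 65.7 and 72.3 CPM on day 3 and 64.5, 66.5 and 55.7 CPM on day 7, an overlapping set of values. Neither list had a promoter called between days, and their median log2 fold changes were 0.05 and -0.02, beside -0.03 over the promoters of all genes.

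**Figure D1:**
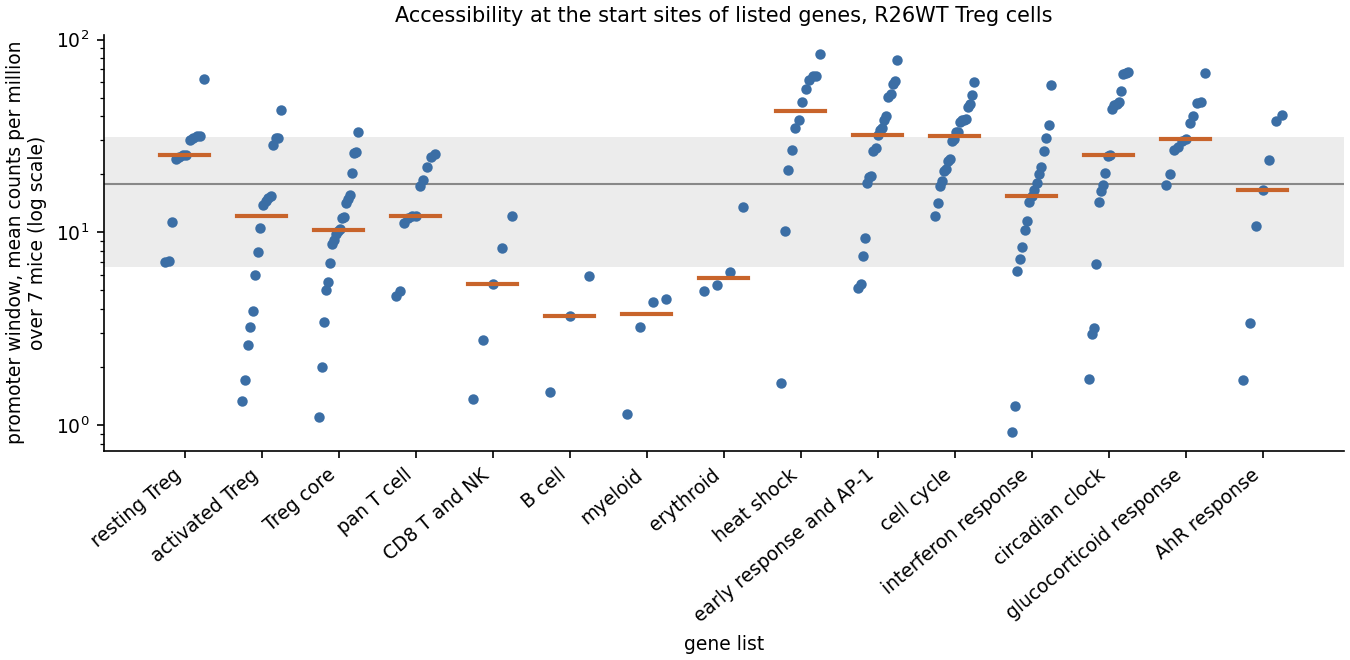
Mean promoter accessibility over the 7 R26WT mice, in CPM on a log axis, for the genes of 15 lists. Each point is the promoter window of a gene, the orange bar is the list's median, and the grey line and band are the median (17.8 CPM) and the quartiles (6.56 and 31.2 CPM) over all protein-coding promoters. B cell and myeloid promoters sit under 6 CPM, and heat shock promoters have the highest median at 42.7 CPM.

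Checked against markers of other cell types, the libraries held open T cell genes and weak signal at B cell and myeloid promoters, while some genes of the other lists were open too. Of 10 B cell genes, 7 had no tested promoter window, including Ms4a1 and Pax5, and the remaining 3 had a median of 3.68 CPM. Of 10 myeloid genes, 6 had none, including Lyz2 and Csf1r, and the remaining 4 had a median of 3.78 CPM. The T cell genes had a median of 12.1 CPM over 11 promoter windows, beside 17.8 CPM over all promoters. Among them were Lck, the proximal T cell receptor kinase, at 25.4 CPM and Bcl11b, the T lineage commitment factor, at 24.7 CPM. Summed over their promoter windows, the B cell genes ran from 7.71 to 11.4 CPM on day 3 and from 9.5 to 14.9 CPM on day 7, and the myeloid genes from 11.6 to 14.3 CPM and from 11.4 to 13.3 CPM. Sums were larger over the strongest window of each gene or the 10 kb before it. There 8 B cell genes had 34.5 to 37.3 CPM on day 3 and 36.8 to 39.8 CPM on day 7. For 6 myeloid genes it was 94.6 to 116.0 CPM and 93.8 to 103.0 CPM. The medians of these strongest windows were 3.37 CPM (B cell), 5.14 CPM (myeloid) and 18.6 CPM (T cell). Promoters of the plasma cell list (2, Sdc1 and Xbp1, both also used by other cells) had a median of 13.3 CPM, those of the CD8 T and NK list (5) one of 5.41 CPM and those of the erythroid list (4) one of 5.76 CPM. The ranges of the days overlap for the B cell and the myeloid genes, and the part of such cells in any result was not tested.

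Foxp3 itself (chrX:7579676-7595243, plus strand) had 23 windows within the gene and 10 kb on both sides, and none was called. No tested window lay within 2000 bp of its start site. The most accessible lay 5301 bp before the start (chrX:7574275-7574476) but only 94 bp from the start site of Ppp1r3f, a regulatory subunit of a phosphatase, whose promoter it therefore is. It had 26.1, 26.7, 28.8 and 32.3 CPM on day 3 and 29.5, 34.1 and 24.3 CPM on day 7. Inside the gene the most accessible window was 4338 bp past the start (chrX:7583914-7584115), with 7.64, 10.7, 10.7 and 9.97 CPM on day 3 and 11.6, 8.47 and 8.85 CPM on day 7. The days overlapped at both windows, with log2 fold changes of 0.06 and -0.02. One of the 23 windows was higher on day 7 at an unadjusted p under 0.05 (adjusted p = 0.948, edgeR) and none was lower. Over all windows 2.6% were higher and 2.65% lower at that p.

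Between day 7 and day 3, 7 of the 232991 windows passed an adjusted p of 0.05 (quasi-likelihood F-test of edgeR, Benjamini-Hochberg adjusted over all tested windows), or 0.003%. These 7 fall into 6 regions at 5 genes. The windows lower on day 7 lay in Hspa1b, Hsph1 and Izumo1r, and those higher on day 7 beyond the end of Nfkbiz and before the start of Bmf. At an unadjusted p under 0.05, 6057 windows (2.6%) were higher and 6166 (2.65%) lower. Of the 64494 windows that averaged 50 counts or more, 99.5% differed by less than 1.5-fold between days, and the middle 95% of their log2 fold changes spanned -0.40 to 0.35. The number of calls changed with single libraries: without day 3 replicate 1, day 3 replicate 4 or day 7 replicate 2 none passed, without day 3 replicate 3 or day 7 replicate 3 there were 3, without day 3 replicate 2 there were 5, and DESeq2 called 0 with 6181 windows at an unadjusted p under 0.05. All 7 called windows kept their direction in all of these, and without single libraries the log2 fold changes ran from -1.53 to -1.22 at the first Hspa1b window, from -1.43 to -1.23 at Hsph1, from -1.14 to -0.84 at Izumo1r, from 0.95 to 1.44 at the Nfkbiz windows and from 1.01 to 2.02 at Bmf.

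**Figure D2:**
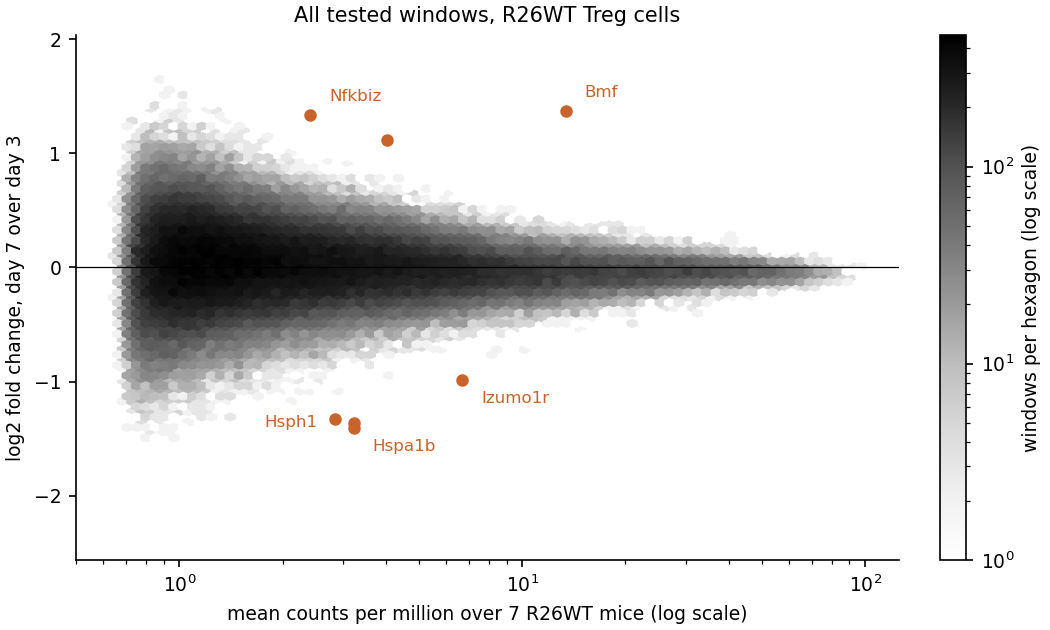
Log2 fold change of day 7 over day 3 against mean CPM (log axis) for the 232991 tested windows in R26WT mice, with darker hexagons holding more windows. Orange points are the 7 windows called by edgeR at an adjusted p of 0.05, labelled once a gene, and the bulk of windows narrows around 0 as accessibility increases.

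Of the gene lists examined, the heat shock genes had the largest share of windows lower on day 7. The lists were chosen with earlier results of these data known, and this list holds 3 of the called windows. Its rank is therefore a description and not a separate test. Heat shock proteins are chaperones that fold and refold proteins, and their genes are switched on rapidly when the transcription factor HSF1 binds heat shock elements before their start sites. Hspa1b and its near-identical neighbour Hspa1a encode the inducible members of the HSPA family, and Hsph1 encodes a larger relative that exchanges their nucleotide. The bases before the start sites of 4 of these genes are shown because the windows that differed lie just downstream of them. They come from RefSeq on GRCm38.p6, run from 250 bases before the start up to it in the direction of transcription, and carry in capitals each match to GAANNTTC or TTCNNGAA, paired inverted repeats that form the core of a heat shock element.

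Hspa1b, chr17:34959239-34959488, minus strand: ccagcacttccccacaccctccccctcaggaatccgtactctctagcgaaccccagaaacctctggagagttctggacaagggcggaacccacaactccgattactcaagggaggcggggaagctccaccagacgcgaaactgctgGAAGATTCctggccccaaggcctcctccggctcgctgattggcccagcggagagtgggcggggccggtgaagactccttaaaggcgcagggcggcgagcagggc
Hspa1a, chr17:34972157-34972406, minus strand: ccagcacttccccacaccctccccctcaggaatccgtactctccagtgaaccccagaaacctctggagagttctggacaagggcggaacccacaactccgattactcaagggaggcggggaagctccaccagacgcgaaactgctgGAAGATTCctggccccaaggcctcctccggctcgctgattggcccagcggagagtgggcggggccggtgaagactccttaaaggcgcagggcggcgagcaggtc
Hsph1, chr5:149636337-149636586, minus strand: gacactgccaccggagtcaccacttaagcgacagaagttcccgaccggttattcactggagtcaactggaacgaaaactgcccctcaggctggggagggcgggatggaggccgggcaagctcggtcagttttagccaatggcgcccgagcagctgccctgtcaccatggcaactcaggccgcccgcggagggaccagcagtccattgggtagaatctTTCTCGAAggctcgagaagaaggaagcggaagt
Hspe1, chr1:55087898-55088147, plus strand: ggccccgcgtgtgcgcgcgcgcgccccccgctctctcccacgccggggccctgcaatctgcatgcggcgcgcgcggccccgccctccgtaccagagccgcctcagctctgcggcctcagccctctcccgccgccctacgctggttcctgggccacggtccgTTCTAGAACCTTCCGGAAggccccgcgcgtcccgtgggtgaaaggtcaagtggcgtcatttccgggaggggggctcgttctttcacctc

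Each motif reads the same on both strands in its fixed letters, and the 2 can overlap, as in Hspe1, where 18 bases are covered from 89 to 72 bases before the start. In Hspa1b and Hspa1a the match starts 104 bases before the start and in Hsph1 33 bases before it. Over all 21263 promoters of protein-coding genes in the table, 6.17% held GAANNTTC, 6.48% held TTCNNGAA and 11.8% held either. Of the 15 promoters in the table that belong to heat shock genes, 8 (53.3%) held either motif, in 7 of 10 genes. Hspb1 is among the 7 but had no window lower on day 7 at an unadjusted p under 0.05. Dnajb1 and Hsp90ab1 had such windows and are not among the 7, though not all 13 genes of the list are in the table. Whether the motif goes with the lower windows was not tested. The Hspa1a and Hspa1b stretches are identical at 247 of 250 positions, so reads from them may be split or misplaced between the copies and their values are uncertain gene by gene.

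At Hspa1b, the window 1537 bp downstream of the start (chr17:34957601-34957802, inside the gene) had 4.86, 3.23, 4.48 and 4.87 CPM on day 3 and 1.28, 1.74 and 2.1 CPM on day 7. All 3 day 7 mice lay under all 4 day 3 mice. The log2 fold change was -1.41 (SE 0.24, adjusted p = 0.0301, edgeR), and an overlapping window gave -1.36. At Hsph1, a window 1309 bp downstream of the nearest start (chr5:149634906-149635107, inside the gene) had 3.47, 3.89, 4.48 and 3.34 CPM on day 3 and 1.35, 1.45 and 1.95 CPM on day 7. The groups again did not overlap, and the log2 fold change was -1.32 (SE 0.25, adjusted p = 0.045, edgeR). Non-overlap of this kind occurred in 3.2% of all windows with day 7 lower and in 3.23% with day 7 higher.

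In both genes the windows farthest inside had the lowest values, without a steady trend before them. At the Hspa1b start site the window had 27.4, 27.9, 33.9 and 34.3 CPM on day 3 and 17.7, 25.2 and 20.1 CPM on day 7, a log2 fold change of -0.55 (adjusted p = 0.434, edgeR). It stayed between -0.59 and -0.49 up to 658 bp and was -0.93 at 922 bp, -0.94 at 1056 bp, -1.36 at 1453 bp and -1.41 at 1537 bp. At the Hsph1 start site, the window 168 bp past the gene start had a log2 fold change of -0.17 with 64.5 CPM on average. Counted from the same point, the values were -0.52 at 709 bp, -0.50 at 779 bp, -0.42 at 1140 bp, -0.56 at 1191 bp and -1.32 at 1492 bp, the called window. Windows 6346 to 7071 bp past the Hspa1b start, beyond the end of the gene, had log2 fold changes of -0.09 to 0.14.

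**Figure D3:**
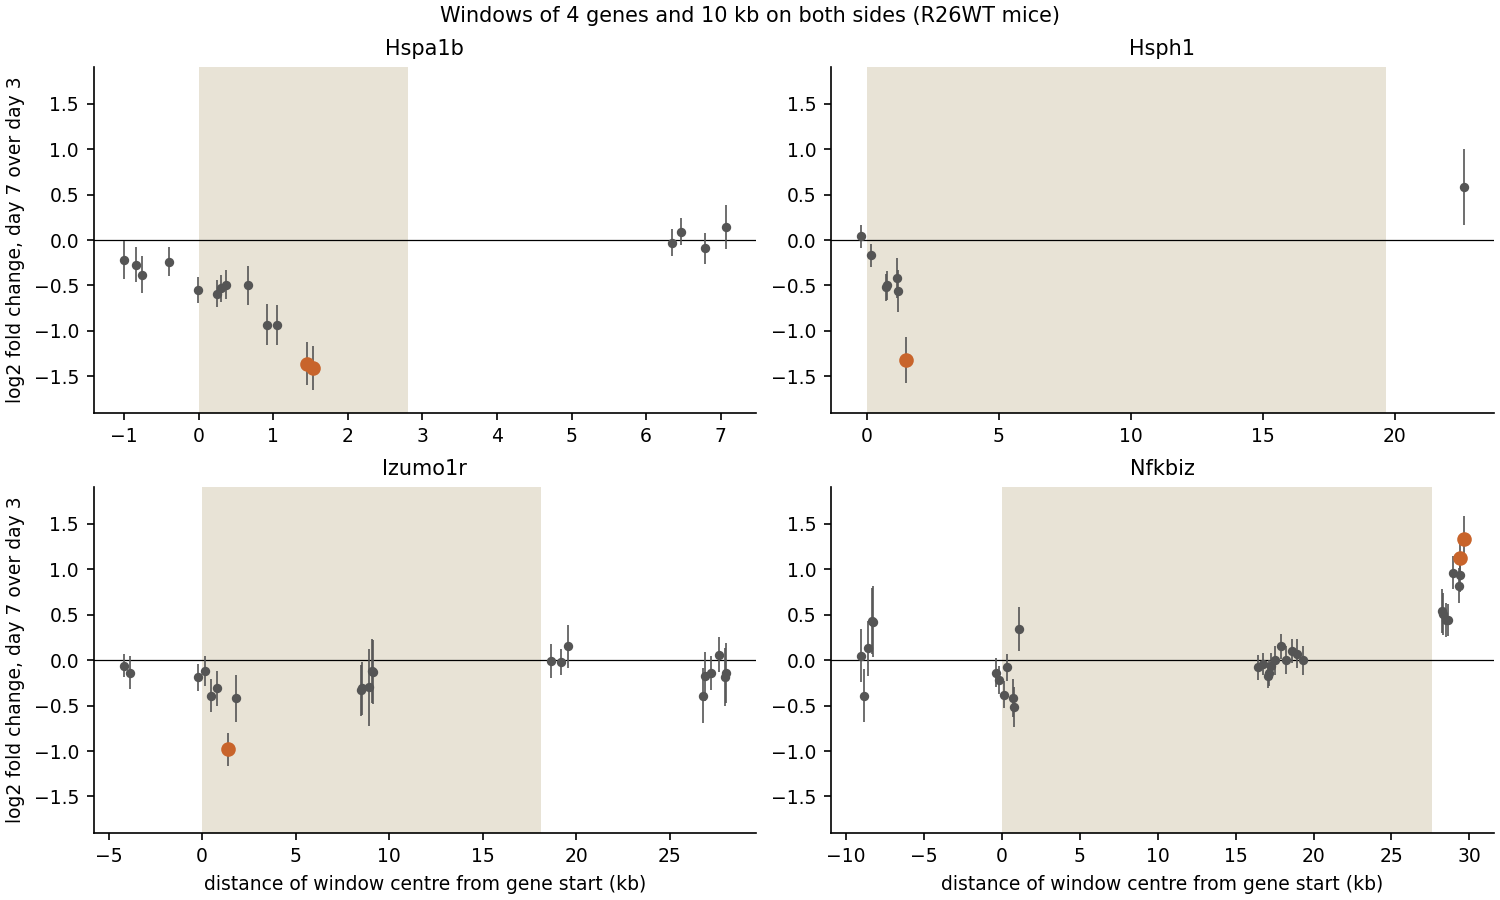
Log2 fold change of day 7 over day 3 (points, with standard errors) against the distance of each window from the gene start in kb, for Hspa1b, Hsph1, Izumo1r and Nfkbiz and 10 kb on both sides in R26WT mice. The shaded band is the gene, orange points are called windows, and the lowest values lie farthest inside Hspa1b and Hsph1 and the highest beyond the far end of Nfkbiz.

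The heat shock genes as a whole were lower more often than higher. The 13 genes of the list and the 10 kb before them held 110 windows, of which 87 were lower and 23 higher on day 7, with a median log2 fold change of -0.22. Of the 110, 32 (29.1%) were lower at an unadjusted p under 0.05 and 0 were higher, and 3 passed the adjusted threshold. Over the 162928 windows in any protein-coding gene or the 10 kb before one, 2.86% were lower and 2.34% higher at that p, with a median of -0.01. Day 7 lay entirely under day 3 in 18 of the 110 windows (16.4%) and entirely above it in 2. Neighbouring and overlapping windows share fragments, so these counts are not independent. Hspa1a, Hspa1b and Hsph1 held 20 of the 32 windows and all 3 calls. The 75 windows of the other 10 genes counted 57 lower and 18 higher, with 12 lower and 0 higher at an unadjusted p under 0.05, none called and a median of -0.13.

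The lower windows belonged to 9 of the 13 genes. Dnajb1, a J-domain partner of the inducible chaperones, had 2.78, 2.57, 3.26 and 3.46 CPM on day 3 and 1.48, 2.32 and 0.9 CPM on day 7 in a window 1208 bp downstream of its start, a log2 fold change of -0.83 (adjusted p = 0.808, edgeR). Hspe1 and Hspd1, which encode the mitochondrial chaperonins and share a promoter region, had 3.73, 5.4, 4.68 and 4.05 CPM on day 3 and 2.89, 2.9 and 1.65 CPM on day 7 in a shared window, a log2 fold change of -0.77 (adjusted p = 0.664, edgeR). Both windows kept the days apart.

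Among the abundant chaperones the values differed less. Hsp90ab1, a constitutive cytosolic chaperone, had 21.8, 23.1, 25.1 and 25.5 CPM on day 3 and 16.2, 20.5 and 12.5 CPM on day 7 in a window 685 bp from its start, a log2 fold change of -0.51 (adjusted p = 0.626, edgeR). Hspa8, the constitutive family member with the most open promoter of the list at 84.5 CPM, Hspa5, the chaperone of the endoplasmic reticulum, and the cochaperone Bag3 had no window under an unadjusted p of 0.05. The small heat shock gene Hspb1 had none either, with a median log2 fold change of 0.14.

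At promoters alone the heat shock list had 12 windows, 10 of them lower on day 7, with a median log2 fold change of -0.18 and 2 lower at an unadjusted p under 0.05. Over the 11571 promoter windows of all genes, 2.2% were lower and 1.56% higher at that p. Inside genes but beyond 1000 bp of a start site, 8 of 19 heat shock windows were lower at that p (42.1%, median -0.44), and within 1000 bp 24 of 74 (32.4%, median -0.25). Between genes it was 0 of 17.

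**Figure D4:**
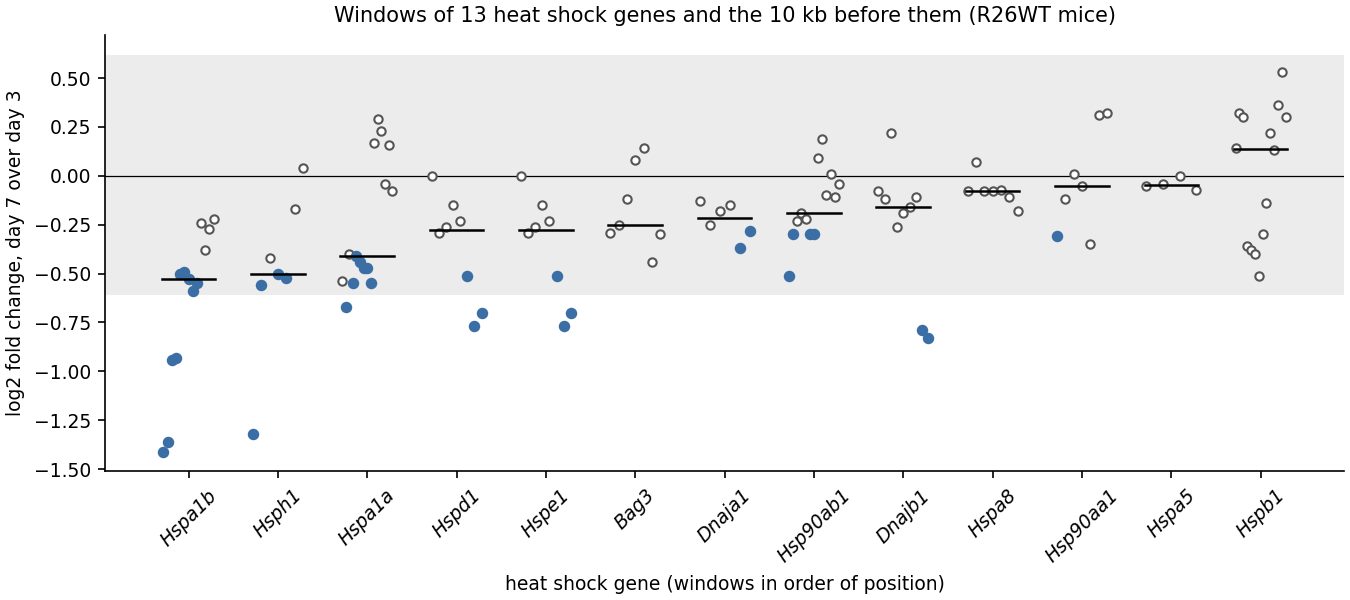
Log2 fold change of day 7 over day 3 in R26WT mice for every tested window of 13 heat shock genes and the 10 kb before them, genes ordered by their median (black bar) and windows by position. Filled points have an unadjusted p under 0.05, and the grey band covers 95% of the windows of all protein-coding genes (-0.61 to 0.62). Every filled point lies under 0, with Hspa1b, Hsph1 and Hspa1a at the low end.

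Summed over the 110 windows, the heat shock genes had 1637, 1542, 1770 and 1866 CPM in the day 3 mice and 1518, 1645 and 1300 CPM in the day 7 mice. The sums overlap between the days, with the shallow day 7 replicate 3 lowest. Without each library in turn, 22 to 36 of the 110 windows were lower at an unadjusted p under 0.05 and 0 were higher, and 22 to 32 of the 32 windows lower with all 7 libraries were among them. Over the list as a whole, R26TIR1(F74G) mice did not show this order of the days. There 0 of the 110 windows were lower and 14 were higher on day 7 at that p, with a median log2 fold change of 0.10, beside 3.09% lower and 3.47% higher and a median of 0.01 over all gene windows in those mice. Their sums over the 110 windows, scaled over all 14 libraries, were 1567, 1831, 1228 and 1627 CPM on day 3 and 1883, 1560 and 1796 CPM on day 7. These sums overlap between the days too, with day 3 replicate 3 lowest. The counts in those mice were not repeated without single libraries. The Hspa1b window had 4.32, 8.53, 0.969 and 6.35 CPM in the R26TIR1(F74G) day 3 mice and 5.56, 1.67 and 3.24 CPM on day 7, a wider spread among mice of the same day than in R26WT. In these mice its log2 fold change was -0.58 (adjusted p = 0.753, edgeR). The overlapping Hspa1b window gave -0.44 (adjusted p = 0.832, edgeR) and the called Hsph1 window -0.18 (adjusted p = 0.914, edgeR).

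Izumo1r, which encodes the folate receptor family member FR4 found on Treg cells, had 1 called window 1192 bp downstream of its nearest start (chr9:14902475-14902676, inside the gene). It had 10.1, 7.9, 7.67 and 8.33 CPM on day 3 and 3.53, 4.93 and 4.35 CPM on day 7, with no overlap between the days. The log2 fold change was -0.98 (SE 0.18, adjusted p = 0.0306, edgeR). Its start site and upstream windows stayed closer to 0, as the promoter window had 7.98, 9.29, 9.09 and 9.97 CPM on day 3 and 7.7, 7.77 and 8.85 CPM on day 7 (log2 fold change -0.19, adjusted p = 0.981, edgeR). The strongest window of the locus, 4197 bp before the gene start at 23.0 CPM, had a log2 fold change of -0.06. Of 22 windows at the locus, 20 were lower, with a median log2 fold change of -0.16, and 2 of them at an unadjusted p under 0.05, beside 2.65% over all windows.

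Beyond the far end of Nfkbiz, which encodes the nuclear NF-kB cofactor IkBzeta, accessibility was higher on day 7. The window 29429 bp from the gene start and past its end (chr16:55809425-55809626, between genes) had 2.34, 2.63, 3.05 and 2.7 CPM on day 3 and 6.93, 4.93 and 5.7 CPM on day 7. The neighbouring window (chr16:55809218-55809419) had 1.3, 1.32, 1.49 and 1.76 CPM on day 3 and 4.62, 3.36 and 3 CPM on day 7. The days did not overlap in either, with log2 fold changes of 1.12 (SE 0.20, adjusted p = 0.0301, edgeR) and 1.33 (SE 0.25, adjusted p = 0.0406, edgeR). Another window 28981 bp from the start gave 0.96 and missed the threshold (adjusted p = 0.0631, edgeR).

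The 9 windows between 28278 and 29636 bp from the Nfkbiz start all had an unadjusted p under 0.05 and were higher on day 7. Over all windows 2.6% were higher at that p. Several of the 9 overlap and share fragments, so their counts are not independent. Within the gene, the strongest window at 41.8 CPM had a log2 fold change of -0.04. Near the start site 3 windows were lower at that p, with log2 fold changes of -0.38 to -0.52, beside 2.65% lower over all windows. All 9 were also higher on day 7 in R26TIR1(F74G) mice, which share no library with this comparison, with log2 fold changes of 0.24 to 0.91, 8 of them at an unadjusted p under 0.05 and none after adjustment. The days were apart there at 7 of the 9, and the share of such windows over all windows of those mice is not given here. Over all gene windows of those mice, 3.47% were higher at that p, but the 9 lie between genes and outside that set. In those mice the window at 55809425 had 2.34, 2.63, 3.2 and 2.65 CPM on day 3 and 4.12, 4.77 and 4.91 CPM on day 7, a log2 fold change of 0.74 that did not pass (adjusted p = 0.316, edgeR). The smallest value was that of the window at 55809873, with 3.78, 4.4, 3.35 and 4.91 CPM on day 3 and 5.08, 4.59 and 5.06 CPM on day 7, where the days overlapped (0.24, adjusted p = 0.851, edgeR). The difference between genotypes at that window was 0.71 (unadjusted p = 0.00761, adjusted p = 0.713, edgeR).

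Before Bmf, which encodes a BH3-only protein that promotes apoptosis, 1 window 4798 bp ahead of the start (chr2:118554384-118554585, between genes) was called with a log2 fold change of 1.37 (SE 0.24, adjusted p = 0.0301, edgeR). It had 8.68, 1.38, 16.7 and 5.81 CPM on day 3 and 23.6, 21.6 and 16.2 CPM on day 7. The days overlap, and the day 3 mice alone spanned more than the distance between the days. The next window, 5172 bp ahead, had the same order of mice, from 2.11 to 23.1 CPM on day 3 and from 15.9 to 25.7 CPM on day 7. Without day 3 replicate 3 the called window gave 2.02 (adjusted p = 5.98e-07, edgeR), without day 3 replicate 2 it gave 1.01 (adjusted p = 0.101, edgeR), it also missed the threshold without day 3 replicate 1, day 3 replicate 4 or day 7 replicate 2, and by DESeq2 it had an unadjusted p of 0.0819. Whether the mice differ in DNA sequence there was not tested. At windows 117 bp past and 100 bp before the Bmf gene start the log2 fold changes were 0.14 and 0.17. A window 308 bp from another start site inside the gene gave -0.46 (adjusted p = 0.933, edgeR). One 8367 bp ahead of the gene start gave 1.02 (adjusted p = 0.257, edgeR).

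**Figure D5:**
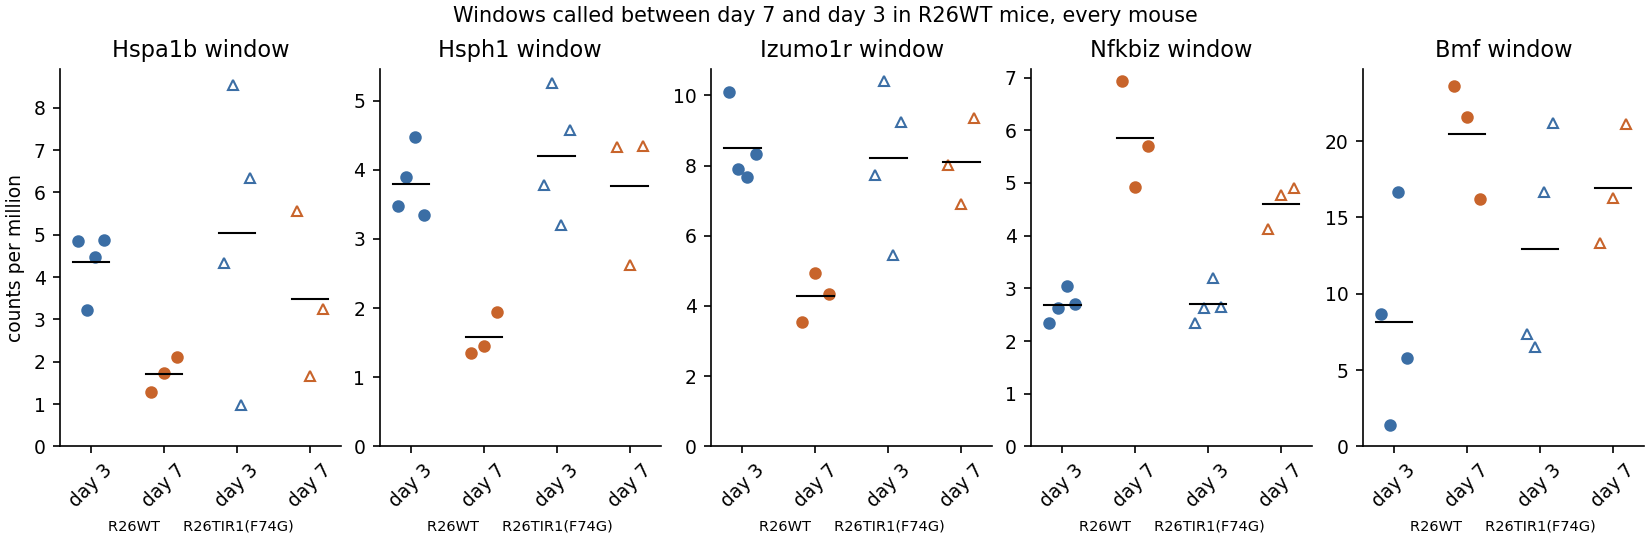
CPM in every mouse at 1 called window for each of 5 genes, with filled circles for R26WT and open triangles for R26TIR1(F74G) mice, blue for day 3, orange for day 7 and black bars for group means. R26WT days are apart at Hspa1b, Hsph1, Izumo1r and Nfkbiz and overlap at Bmf, and R26TIR1(F74G) days are apart only at Nfkbiz. The R26TIR1(F74G) values were scaled over all 14 libraries.

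The day difference was not shown to depend on genotype at any of these windows. In the test of the difference between R26WT and R26TIR1(F74G) day effects, 0 windows passed (smallest adjusted p = 0.335, edgeR), and 15221 had an unadjusted p under 0.05. The difference between genotypes was -0.95 on the log2 scale at Izumo1r (adjusted p = 0.532, edgeR), -1.15 at Hsph1 (adjusted p = 0.574, edgeR), -0.83 at Hspa1b (adjusted p = 0.811, edgeR) and 1.01 at Bmf (adjusted p = 0.739, edgeR). At Nfkbiz it was 0.38 (adjusted p = 0.868, edgeR).

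Many windows kept the days apart but missed the threshold. Over all windows, the days did not overlap in 3.23% with day 7 higher and in 3.2% with day 7 lower. Besides the Nfkbiz window above, those with the smallest unadjusted p in each direction were named by rule. They were a window inside Rdh13, 5711 bp before the Eps8l1 start (log2 fold change 1.48, adjusted p = 0.0875, edgeR), and one 86843 bp before the Tent5a start (1.49, adjusted p = 0.239, edgeR), both higher on day 7. Lower on day 7 were a window inside Gsk3b, 42946 bp past its start (-1.10, adjusted p = 0.0875, edgeR), and one between genes, 180136 bp past the Wdr11 start (-1.44, adjusted p = 0.175, edgeR). The Gsk3b window (chr16:38131847-38132048) had 5.47, 5.2, 9.02 and 6.51 CPM on day 3 and 4.49, 2.15 and 2.25 CPM on day 7. Its value rested on which day 7 mice were used, as it was -1.59 and passed without replicate 1 (adjusted p = 0.000724, edgeR) and -0.84 without replicate 2 (adjusted p = 0.774, edgeR). The Eps8l1 window passed in 2 of 16 alternatives. These were without day 7 replicate 1 (1.63, adjusted p = 0.018, edgeR) and with the replicate number as a block (2.09, adjusted p = 0.000166, edgeR). By DESeq2 it had an unadjusted p of 0.00704. In R26TIR1(F74G) mice its log2 fold change was -0.64 (adjusted p = 0.682, edgeR). The difference between genotypes there was 2.12 (adjusted p = 0.335, edgeR).

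The Gsk3b window lies in a stretch of chromosome 16 where day 7 mice differed from each other. With day 7 replicate 1 left out, 57 windows were called, 50 of them lower on day 7, and 46 of the 57 lay on chromosome 16, which held 3.71% of the tested windows. These 46 span chr16:10383944-59617402. At the 43 of them that were lower, day 7 replicate 2 stood at a median of 8.71% of the day 3 mean and had no count in 15, replicate 3 stood at 43.5%, and replicate 1 at 94.9%. An example is a window inside Lpp (chr16:24518860), with 6.77, 5.8, 6.51 and 5.81 CPM on day 3 and 5.52, 0 and 1.8 CPM on day 7. The start site window of Timmdc1 had 41.6, 46.1, 46.3 and 54 CPM on day 3 and 44.8, 7.83 and 24.2 CPM on day 7. The day 7 mice thus span the whole range at these windows, and whether these mice carry different strain haplotypes on this stretch was not tested. The Nfkbiz windows lie within the same stretch, and at 5 of the 9 distal ones replicate 1 was the highest of the 3 day 7 mice. Without day 7 replicate 1, the window at 55809425 had a log2 fold change of 0.95 (adjusted p = 0.192, edgeR), without replicate 2 one of 1.25 (adjusted p = 0.0512, edgeR) and without replicate 3 one of 1.13 (adjusted p = 0.0501, edgeR). The window at 55809218 gave 1.12 (adjusted p = 0.279, edgeR), 1.42 (adjusted p = 0.0792, edgeR) and 1.42 (adjusted p = 0.0491, edgeR) without replicates 1, 2 and 3. The days stayed on the same side at both, while the call at 55809425 was lost in each case.

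Across the genome the days did not separate. The share of counts in start site windows was 52.1% ± 0.958 (SD, n = 4) on day 3 and 51.0% ± 2.06 (SD, n = 3) on day 7, a difference of -1.07 percentage points (exact permutation test, two-sided p = 0.514, where 35 assignments allow no p under 0.0571). Over the 20000 most accessible windows, mice of different days were on average 0.22 apart and mice of the same day 0.209 apart, as the SD of their log2 ratios (exact permutation test, one-sided p = 0.171, smallest possible 0.0286). Day 7 replicate 3 was the farthest from the others at 0.27, against 0.196 to 0.23. Without day 7 replicate 3 the start site difference turned to 0.113 percentage points and that of the distances, 0.0114 with all mice, to -0.00546, and without day 7 replicate 1 the latter was 0.0277.

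By window class, the median log2 fold change was -0.03 at start sites and 0.04 between genes. At an unadjusted p under 0.05, 1.56% of start site windows were higher and 2.67% lower on day 7, and between genes 3.32% were higher and 2.15% lower. By chromosome, the median ran from -0.033 on the X to 0.036 on chromosome 13. The share of windows with an unadjusted p under 0.05 was largest on chromosome 16, at 6.31%, and smallest on chromosome 19, at 4.71%.

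Lists of genes that respond to hormones, day length, foreign compounds or cytokines had no called window. Targets of the aryl hydrocarbon receptor, which senses indole compounds among others, had a median promoter log2 fold change of 0.03, and Cyp1a1, its classical target, had 1.54 ± 0.297 CPM (SD, n = 4) on day 3 and 1.92 ± 0.67 CPM (SD, n = 3) on day 7, a log2 fold change of 0.23 (adjusted p = 0.99, edgeR). Glucocorticoid response genes had a median of -0.03 with Per1 at 67.0 CPM, and circadian clock genes one of -0.09 with Nr1d2 at 67.8 CPM. Interferon response genes had a median of -0.10, cell cycle genes -0.02 with Pcna at 60.0 CPM, and early response and AP-1 genes 0.02 with Jun at 78.0 CPM. The medians stand beside -0.03 over all promoters.

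Signalling and trafficking genes gave values of the same size. Genes of T cell receptor and costimulation signalling had a median promoter log2 fold change of 0.00, led by Cblb, a ubiquitin ligase that restrains activation, at 66.5 CPM. IL-2 and STAT5 signalling genes had a median of -0.03, led by Socs1 at 58.0 CPM. Migration genes had a median of -0.01, led by Klf2.

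Over all windows of the T cell genes and the 10 kb before them, lower values outnumbered higher ones. Of 275 pan T cell windows, 16 (5.82%) were lower and 3 (1.09%) higher on day 7 at an unadjusted p under 0.05, with a median log2 fold change of -0.05 and none called. Over all gene windows the shares were 2.86% lower and 2.34% higher. The number lower ran from 9, without day 3 replicate 4, to 21, and in R26TIR1(F74G) mice 2 were lower and 11 higher on day 7. The strongest Cd4 window (chr6:124885238-124885439) had 20.5, 20.4, 17.1 and 19.5 CPM on day 3 and 17.6, 14.4 and 14.6 CPM on day 7, a log2 fold change of -0.31 (adjusted p = 0.928, edgeR). The days overlapped there. Treg core windows counted 21 lower (3.55%) and 8 higher of 592, with the called Izumo1r window among them, and resting Treg windows 23 lower (3.9%) and 8 higher of 590. B cell windows counted 8 higher (11.3%) and 5 lower (7.04%) of 71, and without day 7 replicate 2 there were 0 higher. All 3 B cell promoters were higher on day 7, 2 of them at an unadjusted p under 0.05, and the part of B cells in the values above was not tested. A shift in the mix of cells and a change within each cell cannot be told apart in these bulk libraries.

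The promoter of Xist, the RNA that coats the inactive X chromosome, had 17.4, 18.2, 19.1 and 18.5 CPM on day 3 and 21.2, 16 and 15.3 CPM on day 7, and all 7 mice lay in a narrow range. The X chromosome held 2.16% to 2.27% of the counts in each library.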

How the data were processed

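Bulk ATAC-seq of sorted Treg cells was analysed in 7 R26WT libraries (4 of day 3, 3 of day 7), with 7 R26TIR1(F74G) libraries beside them. The authors aligned reads with Bowtie2 to mm10, called peaks with MACS2, kept reproducible ones, merged them over samples into an atlas and counted reads around peak summits with featureCounts, and they deposited raw counts per window and library. Reads were not re-aligned here. In the study MACS2 was run with shifted and extended reads. Whether the counted reads were shifted for the Tn5 cut or filtered for duplicates is not given in the sources used here. Since the atlas was built once for the series, a window says nothing of whether its peak was called in R26WT mice. Whether window starts count from 0 or 1 is not given either.

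Groups came from the sample labels. Windows that averaged 10 or more counts in the 7 libraries were kept. edgeR 4.0.16 (R 4.3.3) fitted TMM scaling and a quasi-likelihood test of day 7 against day 3 without covariates, adjusted by Benjamini-Hochberg over all tested windows with a threshold of 0.05. The test of the genotype difference used all 14 libraries. The scripts were tested on simulated data. CPM use TMM-scaled library sizes, and the distance between mice used a pseudocount of 0.5 on log2 CPM. Single values were tested by exact permutation over mice (scipy 1.17.1). The labels number the libraries as replicates and do not say that cells were sorted in separate sessions, so p-values measure the spread between these libraries.

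Each window took the protein-coding gene whose start lay nearest, up to 1 Mb away, from RefSeq on GRCm38, the assembly of mm10, with strand known for 21472 of 21887 genes. Exons and introns were not annotated. Windows named were those past the threshold, filled to 5 a direction with the smallest p among windows whose days do not overlap. In each gene list the members with the most open promoters were named, with the 10 most open windows, the 5 genes with the most windows and every Foxp3 window. Bmf, Cd4, Ctla4, Lpp, Timmdc1 and single heat shock windows were chosen after their values were seen. The members and gene lists were chosen with earlier results of these data known. Alternatives were DESeq2 1.42.0, other scalings, other filters, autosomes, 1 window a region, all 14 libraries, a replicate block and leaving out each library. Thinning to the shallowest library was added after seeing the data.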

Additional observations from a re-analysis of the deposited data

Results flagged for a closer look

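Both windows flagged are single day 3 mice that stood apart from the other 3 of their group. At the window before Tent5a (chr9:85413893-85414094), day 3 replicate 3 had 0.95 CPM and the other day 3 mice 0.694, 0.724 and 0.704 CPM, all under the day 7 values of 1.99, 2.15 and 2.55 CPM. At the start site window of Ppm1b (chr17:84957670), 1 day 3 mouse had 104.0 CPM, with a group mean of 88.5 ± 10.0 CPM (SD, n = 4). Dixon's criterion was applied to 21 groups of 4 mice, and chance flags about 1 in 20 groups, or 1.05 here.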

How the results depend on the processing

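The number of windows called between days was small under all settings that kept all 7 libraries and moved with most of them. Against 7 windows, there were 0 at a threshold of 0.01, 0 with DESeq2 (where 6181 had an unadjusted p under 0.05), 4 under loess offsets, 4 among windows averaging 50 counts or more, 0 with all 14 libraries in the fit and 1 with counts thinned to the smallest library, the last chosen after seeing the data. Leaving out each library in turn gave 0 to 57, with 0 without day 3 replicate 1, day 3 replicate 4 or day 7 replicate 2, 3 without day 3 replicate 3 or day 7 replicate 3, and 57 without day 7 replicate 1, sharing 1 window with the 7. DESeq2's size factors, total counts, no filter and autosomes gave 7 each, a threshold of 0.1 gave 10 and 1 window a region gave 6. For the genotype difference in the day effect, leaving out each R26WT library gave 0 to 19 windows, the 19 without day 7 replicate 1.

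A fit with the replicate number as a block called 16 windows, 8 in each direction, 6 of them among the 7. The labels do not say that the numbers pair the mice. Deviations of same-numbered mice correlated at 0.0529, -0.114 and -0.0324, too few pairs to decide whether the numbers mark shared handling, which was not tested. With the block the genotype test called 0 windows, as it did without. The 5 called windows named by rule kept their direction under every alternative and passed in 8 of 16 at Hspa1b, 7 of 17 at each Nfkbiz window, 7 of 18 at Izumo1r and 5 of 17 at Hsph1. Over all settings the median log2 fold change of all windows stayed between -0.005 and 0.016. The shallowest library, day 7 replicate 3 with 6348754 counts, limits what can be seen at weak windows, and calls rest on windows with 33.9 to 188.0 mean counts.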
